A study of Mus musculus with 6 samples.

Results

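The 10 genes described here, Serpina3n, Cd44, S1pr3, Steap4, Aspg, Cd109, Emp1, Tm4sf1, Ptx3 and Fkbp5, are known to be induced in reactive astrocytes. They were found by matching their symbols to the Ensembl identifiers of the count tables, and all 10 were present among the 54752 genes counted, of which 54723 had a symbol. RNA-seq was performed on the entire right hippocampus of 6 wild-type (WT) C57BL/6 mice at 14 weeks of age, with 3 mice in each group. The methods describe the mice as male and name the strain as C57BL/6 J. BCAS mice had a microcoil placed around each common carotid artery, with the narrower coil on the right, so the hippocampus sampled lay on the side of the tighter stenosis. Sham mice underwent the same operation without coils. Brains of both groups were taken 3 weeks after surgery, and the BCAS group holds only mice that survived the operation. The comparison of BCAS with sham mice asks how long-lasting hypoperfusion changes gene expression in the hippocampus.

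Astrocytes respond to injury, ischemia and inflammation by becoming reactive: they enlarge, raise their intermediate filaments and secrete protease inhibitors, cytokines and matrix proteins. Genes that rise in most forms of this response are called pan-reactive, and 2 further sets are named A1, typical of inflammatory stimulation, and A2, typical of ischemia. By these textbook sets, Serpina3n, Steap4, S1pr3, Cd44 and Aspg are pan-reactive genes, Ptx3, Cd109, Emp1 and Tm4sf1 belong to A2, and Fkbp5 belongs to A1. None of these genes is made by astrocytes alone. Tm4sf1 is abundant in endothelial cells, Cd44 is found on many immune and stromal cells, and Fkbp5 is expressed in neurons.

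The libraries held 29652456 to 35607098 counts. Levels are given as CPM, counts scaled to a common library size with TMM normalization factors, and 3 counts in a library, taken as the limit of detection, were worth 0.0875 to 0.0995 CPM. The lowest count of any of the 10 genes was 12, for Steap4 in sham mouse 3, and all 10 genes passed the filter on low counts, as did 18617 genes in all. An up-regulated DEG had an adjusted P under 0.05 and a log2 fold change above 1 in edgeR's quasi-likelihood test. By this rule 8.47% of the tested genes were up-regulated DEGs, and without the fold change threshold 18.0% were higher and 13.2% were lower in BCAS mice. In 25.3% of the tested genes every BCAS mouse lay above every sham mouse.

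Of the 10 genes, 9 were up-regulated DEGs, and in the same 9 every BCAS mouse lay above every sham mouse. Ptx3, Cd44, Serpina3n, S1pr3, Steap4 and Aspg rose by 2.36 to 3.14 on the log2 scale, Emp1 rose by 1.98, Cd109 by 1.34 and Tm4sf1 by 1.04. Fkbp5 did not pass the test. The median log2 fold change of the 10 genes was 2.45, and that of all tested genes was 0.02.

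**Figure D1:**
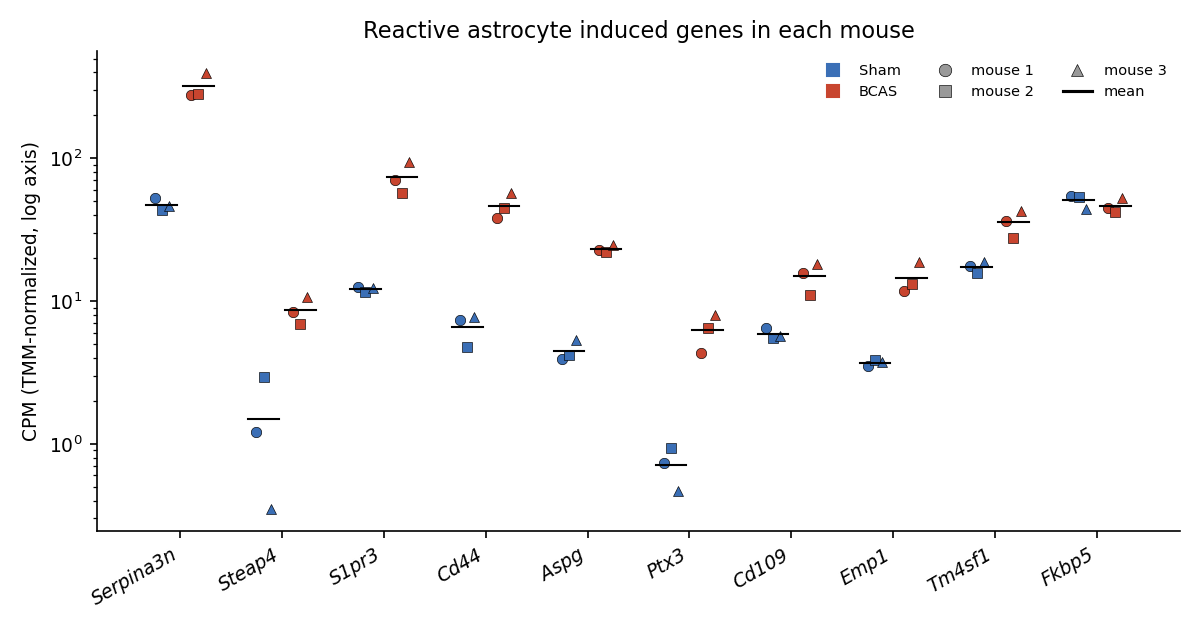
TMM-normalized CPM (log axis) of the 10 genes in each of the 3 sham mice (blue) and 3 BCAS mice (red), with symbols for the mouse number and black lines for the group means. The groups lie apart for 9 genes, from Serpina3n at 43.1 to 52.8 against 279 to 399 CPM down to Ptx3 at 0.466 to 0.928 against 4.31 to 8.05 CPM, and overlap for Fkbp5.

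Serpina3n (ENSMUSG00000021091.8), which encodes a secreted inhibitor of serine proteases, lies on the plus strand of mm10 at chr12:104406729-104414329. The bases before its start are shown because it had the highest CPM per kb of exon of the 10 genes in both groups, together with those of Steap4, Ptx3 and Emp1, which rose, and of Fkbp5, which did not pass the test. The sequences are from RefSeq on GRCm38.p6, each with the 150 bases before an annotated start, 5′ to 3′ on the strand of the gene, and capitals mark the motif matches described with the other promoters. They span chr12:104406558-104406707, chr5:7960322-7960471, chr3:66219737-66219886 and chr6:135362781-135362930, all on the plus strand, and chr17:28486150-28486299 on the minus strand. The starts are those of RefSeq, and those used for Steap4, Emp1 and Fkbp5 lie inside the spans that the count tables give for these genes.
Serpina3n: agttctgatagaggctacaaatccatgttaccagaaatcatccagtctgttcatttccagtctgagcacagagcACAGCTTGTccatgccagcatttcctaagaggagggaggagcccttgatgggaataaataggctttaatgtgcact
Steap4: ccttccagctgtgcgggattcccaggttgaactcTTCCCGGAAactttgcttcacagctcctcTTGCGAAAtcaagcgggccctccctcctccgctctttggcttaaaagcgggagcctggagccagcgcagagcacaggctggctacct
Ptx3: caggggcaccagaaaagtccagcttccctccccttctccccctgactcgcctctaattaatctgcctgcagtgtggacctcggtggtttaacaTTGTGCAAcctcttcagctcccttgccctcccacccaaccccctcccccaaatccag
Emp1: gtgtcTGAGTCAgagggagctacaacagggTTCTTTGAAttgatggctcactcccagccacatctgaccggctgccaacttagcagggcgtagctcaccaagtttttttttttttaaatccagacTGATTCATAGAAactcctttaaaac
Fkbp5: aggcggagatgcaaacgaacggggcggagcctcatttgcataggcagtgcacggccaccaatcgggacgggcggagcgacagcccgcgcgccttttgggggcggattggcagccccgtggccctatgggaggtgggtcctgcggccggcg

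Serpina3n measured 52.8, 43.1 and 46.4 CPM in sham mice 1, 2 and 3 and 279, 283 and 399 CPM in BCAS mice 1, 2 and 3. Every BCAS mouse lay far above the sham mice, and BCAS mouse 3 was highest. The means were 47.4 ± 4.92 CPM in sham and 321 ± 68.3 CPM in BCAS mice (SD, n = 3 each), a 6.76-fold rise, with a log2 fold change of 2.76 (SE 0.15, adjusted P = 1.45e-05 in edgeR). Serpina3n lies in a cluster of similar genes on chromosome 12, and reads that align to several places were not counted, so reads shared with a close copy are missing from its value. The 10 other Serpina3 genes counted summed to 2.07 to 3.75 CPM in sham and 4.41 to 5.61 CPM in BCAS mice. Only 2 of them passed the filter on low counts. For Serpina3i the sham libraries held 2, 0 and 2 counts and the BCAS libraries 33, 37 and 46, at least 14-fold higher when each sham library is set to 3 counts, and was an up-regulated DEG (adjusted P = 0.000595 in edgeR). Serpina3g gave a log2 fold change of 0.35 (SE 0.27, adjusted P = 0.357 in edgeR).

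Cd44 (ENSMUSG00000005087.17, chr2:102811141-102901665, minus strand) encodes the cell surface receptor for hyaluronan, a sugar polymer of the extracellular matrix. It measured 7.41, 4.73 and 7.70 CPM in the sham mice and 38.0, 45.0 and 57.0 CPM in the BCAS mice. The lowest BCAS mouse was well above the highest sham mouse. The means were 6.61 ± 1.64 and 46.7 ± 9.59 CPM (SD, n = 3 each), 7.06-fold apart, with a log2 fold change of 2.82 (SE 0.21, adjusted P = 4.05e-05 in edgeR). Among 11 genes for CD44 ligands and hyaluronan handling, 6 were higher, 3 of them as up-regulated DEGs, 1 was lower and 4 did not pass, with a median log2 fold change of 0.43. Spp1, which encodes the CD44 ligand osteopontin and is made by reactive microglia, rose most, with 9.53, 5.33 and 13.8 CPM in sham and 104, 260 and 243 CPM in BCAS mice (log2 fold change 4.40, SE 0.42, adjusted P = 0.00013 in edgeR). Of the hyaluronan synthases, Has2 rose from 0.413 ± 0.0856 to 1.51 ± 0.660 CPM (SD, n = 3) and Has3 fell by 0.59 on the log2 scale (adjusted P = 0.00979 and 0.0494 in edgeR), while Has1 measured 0.413 to 1.08 CPM in sham and 0.431 to 1.26 CPM in BCAS mice.

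S1pr3 (ENSMUSG00000067586.4, chr13:51408639-51422797, plus strand) encodes a G protein-coupled receptor for the lipid mediator sphingosine 1-phosphate. Its level was 12.5, 11.6 and 12.4 CPM in sham mice and 70.4, 57.5 and 94.8 CPM in BCAS mice. The sham mice lay close together and the BCAS mice spread more widely, without overlap. The means were 12.2 ± 0.471 and 74.2 ± 18.9 CPM (SD, n = 3 each), a 6.09-fold rise, with a log2 fold change of 2.61 (SE 0.17, adjusted P = 2.26e-05 in edgeR). An exon of Gm32834 overlaps an exon of S1pr3, and strand was ignored in counting, so reads from the 2 genes cannot be told apart there. The list of the sphingosine 1-phosphate axis held 13 other genes, of which 5 were higher, 2 of them as up-regulated DEGs, 1 was lower and 7 did not pass, with a median log2 fold change of 0.19. Of the other receptors that passed the test, S1pr1, the main receptor of endothelial cells and astrocytes, rose by 0.32 and S1pr2 by 0.97 (adjusted P = 0.00888 and 0.0204 in edgeR). Sgpl1, the lyase that degrades sphingosine 1-phosphate, rose by 1.5, and Sphk1, a kinase that makes it, by 1.05 (adjusted P = 7.99e-05 and 0.0253 in edgeR). The exporter Spns2 fell by 0.26 on the log2 scale (adjusted P = 0.0216 in edgeR).

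Steap4 (ENSMUSG00000012428.9, chr5:7960457-7982213, plus strand) encodes a membrane metalloreductase that reduces iron and copper. It measured 1.21, 2.93 and 0.350 CPM in the sham mice, or 41, 98 and 12 counts, and 8.40, 6.96 and 10.7 CPM in the BCAS mice. The groups did not overlap, but the sham mice differed widely, with a coefficient of variation of 87.8%, the highest of the 10 genes. The means were 1.498 ± 1.32 and 8.68 ± 1.87 CPM (SD, n = 3 each), 5.80-fold apart, with a log2 fold change of 2.54 (SE 0.55, adjusted P = 0.00867 in edgeR). Without sham mouse 2, which had the highest sham level, the log2 fold change was 3.47, and without sham mouse 3 it was 2.06. In a test against a log2 fold change of 1 (edgeR's glmTreat) the adjusted P was 0.0903.

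The libraries differed in RNA of the choroid plexus, the secretory tissue in the ventricle beside the hippocampus. The 6 choroid plexus markers summed to 1002, 4113 and 71.4 CPM in sham mice 1, 2 and 3 and to 5968, 40.7 and 3240 CPM in BCAS mice 1, 2 and 3. These sums did not separate the groups, and 0 of the 6 markers passed the test in edgeR, DESeq2 or limma-voom, also at an unadjusted P under 0.05. Steap4 followed the order of these sums within the sham mice but not within the BCAS mice, where it was highest in mouse 3 and the marker sum in mouse 1. Its relatives Steap1 and Steap2, metalloreductases of the same family, chosen here after their values were seen, were lowest in the 2 libraries with few choroid plexus reads. Steap1 measured 1.68, 8.68 and 0.233 CPM in sham and 12.8, 0.564 and 7.25 CPM in BCAS mice. Steap2 measured 17.9, 35.4 and 12.01 CPM in sham and 56.5, 11.9 and 37.5 CPM in BCAS mice, and neither passed the test (adjusted P = 0.542 for Steap1 and 0.348 for Steap2 in edgeR). In the 2 libraries with few choroid plexus reads, a pair picked after the values were seen, Steap4 was 0.350 CPM (12 counts) in sham mouse 3 and 6.96 CPM in BCAS mouse 2. With the choroid plexus marker level as a covariate, a setting chosen after seeing the data, the log2 fold change of Steap4 was 2.63 (adjusted P = 0.00149 in edgeR). Beyond this fit, the part of choroid plexus RNA in the levels of Steap4 was not tested. Steap3, which acts in iron uptake, rose in the main comparison from 7.28 ± 1.23 to 17.7 ± 2.35 CPM (SD, n = 3; adjusted P = 0.000529 in edgeR).

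**Figure D2:**
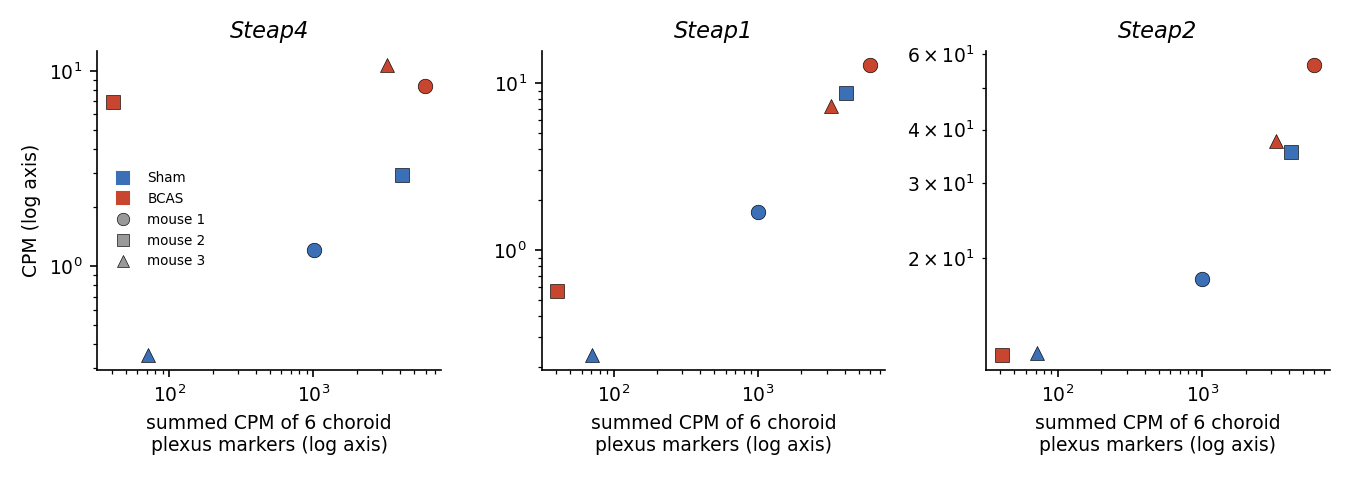
CPM of Steap4, Steap1 and Steap2 (log axes) against the summed CPM of 6 choroid plexus markers (log axes) in the 3 sham mice (blue) and 3 BCAS mice (red). Steap1 and Steap2 are lowest in the 2 libraries with few choroid plexus reads, and Steap4 is 0.350 CPM in the sham library and 6.96 CPM in the BCAS library of these 2.

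Aspg (ENSMUSG00000037686.6, chr12:112106679-112127559, plus strand) encodes an asparaginase, an enzyme that cleaves asparagine. It was 3.95, 4.16 and 5.36 CPM in sham mice and 22.7, 22.1 and 24.6 CPM in BCAS mice. The BCAS mice were nearly alike, with a coefficient of variation of 5.74%, the lowest of the 10 genes in that group. The means were 4.49 ± 0.761 and 23.1 ± 1.33 CPM (SD, n = 3 each), 5.15-fold apart, with a log2 fold change of 2.36 (SE 0.15, adjusted P = 1.93e-05 in edgeR). Asrgl1, another asparaginase, rose by 0.39 on the log2 scale, and Asns, which makes asparagine, fell by 0.54 (adjusted P = 0.00374 and 0.037 in edgeR).

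The A2 genes rose over a wide range. Ptx3 (ENSMUSG00000027832.5, chr3:66219910-66225805, plus strand) encodes a secreted pentraxin, a pattern recognition protein of innate immunity, with 25, 31 and 16 counts in the sham libraries and 140, 196 and 251 in the BCAS libraries. These were 0.738, 0.928 and 0.466 CPM in sham and 4.31, 6.498 and 8.05 CPM in BCAS mice. It was the least abundant of the 10 genes in sham mice and had the largest fold change of the 10, 8.84-fold between means of 0.711 ± 0.232 and 6.28 ± 1.88 CPM (SD, n = 3 each), with a log2 fold change of 3.14 (SE 0.33, adjusted P = 0.000202 in edgeR). Of the neuronal pentraxins, Nptx2 fell by 1.31 on the log2 scale (adjusted P = 0.000429 in edgeR).

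Emp1 (ENSMUSG00000030208.15, chr6:135362545-135383173, plus strand) encodes a small membrane protein of the PMP22 family. It was 3.48, 3.86 and 3.73 CPM in sham mice and 11.7, 13.3 and 18.7 CPM in BCAS mice. No value overlapped. The log2 fold change was 1.98 (SE 0.19, adjusted P = 0.000136 in edgeR), and the means of 3.69 ± 0.192 and 14.5 ± 3.64 CPM (SD, n = 3 each) were 3.94-fold apart. The relatives counted here, Emp2, Emp3 and Pmp22, rose as well (edgeR). Emp3 rose from 1.83 ± 0.620 to 7.05 ± 1.93 CPM, and Pmp22, a protein of peripheral myelin, from 25.6 ± 2.62 to 87.1 ± 22.3 CPM (SD, n = 3; adjusted P = 0.00147 and 0.000128 in edgeR). Emp2 rose by 0.44 on the log2 scale (adjusted P = 0.0172 in edgeR).

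Cd109 (ENSMUSG00000046186.8, chr9:78615546-78716253, plus strand) encodes a membrane-anchored protein of the alpha-2-macroglobulin family that binds TGF-beta. Its level was 6.49, 5.51 and 5.69 CPM in sham mice and 15.7, 10.9 and 18.3 CPM in BCAS mice. BCAS mouse 2 was lowest of the BCAS mice but still above every sham mouse. The means were 5.89 ± 0.525 and 14.97 ± 3.72 CPM (SD, n = 3 each), with a log2 fold change of 1.34 (SE 0.19, adjusted P = 0.0012 in edgeR). In glmTreat against a log2 fold change of 1 the adjusted P was 0.252. Its relative A2m, a secreted protease inhibitor, rose from 6.499 ± 2.66 to 71.4 ± 19.3 CPM (SD, n = 3; log2 fold change 3.46, SE 0.31, adjusted P = 9.35e-05 in edgeR).

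Tm4sf1 (ENSMUSG00000027800.14, chr3:57285611-57301988, minus strand) encodes a membrane protein of endothelial and other migrating cells. It measured 17.6, 15.8 and 18.7 CPM in sham mice and 36.7, 27.7 and 43.1 CPM in BCAS mice. The groups lay apart, with BCAS mouse 2 nearest to the sham mice. The means were 17.4 ± 1.49 and 35.8 ± 7.74 CPM (SD, n = 3 each), 2.06-fold apart, and the log2 fold change of 1.04 (SE 0.16, adjusted P = 0.0016 in edgeR) lay just above the threshold of a DEG. Without sham mouse 2 it was 0.98 (adjusted P = 0.00875) and without BCAS mouse 3 it was 0.89 (adjusted P = 0.0031 in edgeR), so that in both cases Tm4sf1 was higher but not a DEG.

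Fkbp5 (ENSMUSG00000024222.17, chr17:28399094-28517527, minus strand) encodes FKBP51, a co-chaperone of the glucocorticoid receptor that is itself induced by glucocorticoids. It measured 54.7, 53.5 and 44.0 CPM in sham mice and 44.9, 42.0 and 52.7 CPM in BCAS mice. The groups overlapped. The means were 50.7 ± 5.90 and 46.5 ± 5.54 CPM (SD, n = 3 each), and the log2 fold change was -0.12 (SE 0.11, adjusted P = 0.449 in edgeR), with a 95% confidence interval of -0.39 to 0.14. The upper end of this interval lay below the lower end of the interval of every other gene of the 10, the nearest being Tm4sf1 at 0.69 to 1.41.

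A list of 15 other genes of glucocorticoid response was mixed: 5 were higher, 2 of them as up-regulated DEGs, 2 were lower and 8 did not pass, with a median log2 fold change of 0.14. Cdkn1a, a cell cycle inhibitor, rose by 1.41 and Plin4, a lipid droplet protein, by 1.18 (adjusted P = 0.00619 and 0.0153 in edgeR). Sgk1, a kinase induced by glucocorticoids, rose by 0.62, while Tsc22d3, the glucocorticoid-induced leucine zipper, fell by 0.38 on the log2 scale (adjusted P = 0.00931 and 0.0122 in edgeR). Nr3c2, the mineralocorticoid receptor, which is abundant in hippocampal neurons, fell by 1.16 on the log2 scale, with 234, 206 and 222 CPM in sham and 134, 87.7 and 73.4 CPM in BCAS mice (adjusted P = 0.0025 in edgeR). Of the other FKBP genes listed, Fkbp1a, Fkbp1b and Fkbp3 were lower, Fkbp10, a chaperone of collagen, was higher, and the rest did not pass. For the named genes, in this order, the log2 fold changes were -0.66, -1.06, -0.40 and 0.98 (adjusted P = 0.00692, 0.000825, 0.0206 and 0.000541 in edgeR).

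**Figure D3:**
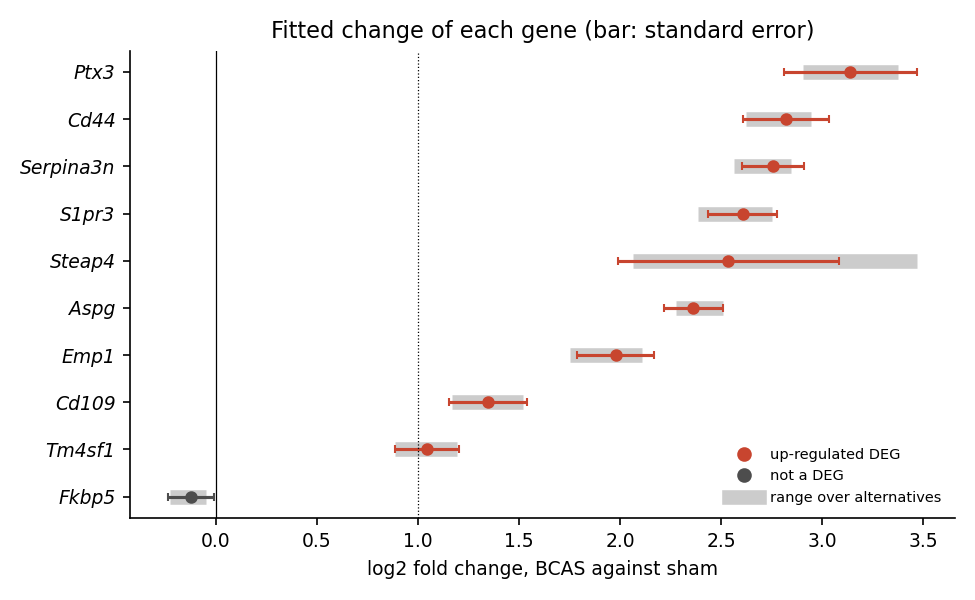
Fitted log2 fold change of each gene in BCAS against sham mice (points) with its standard error (thin bars), and the range over the alternative settings (gray). The dotted line is the fold change threshold of a DEG, which Tm4sf1 at 1.04 barely exceeded, and Fkbp5 at -0.12 lies beside 0.

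Levels of different genes were compared as CPM per kb of exon. On this scale Serpina3n was the most abundant of the 10 genes in both groups, with means of 22.98 ± 2.38 in sham and 155 ± 33.1 CPM per kb in BCAS mice (SD, n = 3 each). Its share of the summed level of the 10 genes was 55.6% to 59.8% in the sham mice and 73.0% to 75.2% in the BCAS mice. The order below Serpina3n differed between the groups. In sham mice Fkbp5 came second, at 5.36 ± 0.623 CPM per kb, then Tm4sf1 at 4.17 ± 0.357 and S1pr3 at 2.73 ± 0.106. In BCAS mice S1pr3 came second, at 16.6 ± 4.24 CPM per kb, then Tm4sf1 at 8.60 ± 1.86, Cd44 at 6.89 ± 1.42, Aspg at 6.57 ± 0.377 and Fkbp5 at 4.92 ± 0.586. In this order Tm4sf1 did not differ from Cd44, nor Cd44 from Aspg, by more than the larger of their SDs. Steap4, Emp1, Ptx3 and Cd109 followed at 2.75 ± 0.593, 2.45 ± 0.614, 2.34 ± 0.7003 and 2.17 ± 0.539 CPM per kb, and neighbors in this order differed by less than their SDs. The share of Fkbp5 in the sum was 11.97% to 15.1% in sham and 2.16% to 2.56% in BCAS mice.

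All 10 genes, Fkbp5 included, were highest in BCAS mouse 3 among the BCAS mice. BCAS mouse 3 was also highest for 83.2% of all up-regulated DEGs and for 34.3% of all tested genes. The ratio of BCAS mouse 3 to the mean of the other 2 BCAS mice ran from 1.10 for Aspg to 1.49 for Ptx3 and Emp1. Among the BCAS mice, this mouse also had the highest marker sums of microglia (4682 CPM), oligodendrocytes (9050 CPM), astrocytes (9114 CPM), endothelial cells (456 CPM), mural cells (503 CPM) and fibroblasts (443 CPM) and the lowest of neurons (5627 CPM). Its lead was small for astrocytes, at 8912 and 9003 CPM in BCAS mice 1 and 2, and for endothelial cells over BCAS mouse 1, at 455 CPM. The sums of choroid plexus and blood markers were highest in BCAS mice 1 and 2, at 5968 and 168.5 CPM. Without BCAS mouse 3, the same fit gave 8 of the 10 genes as up-regulated DEGs, Tm4sf1 being the one lost. It gave 1210 up-regulated DEGs in all, in place of 1576.

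In bulk tissue, a change in the number of cells of a type and a change in RNA per cell cannot be told apart, so marker genes of the cell types were summed beside the 10 genes. The 14 markers of astrocytes summed to 6220 to 6517 CPM in sham and 8912 to 9114 CPM in BCAS mice, 1.42-fold higher. Of these, 13 were higher in edgeR, but only the water channel Aqp4 and S100b were DEGs, with log2 fold changes of 1.67 and 1.01. All 12 microglial markers were up-regulated DEGs, and their sum rose from 395 to 413 CPM in sham to 2875 to 4682 CPM in BCAS mice, 8.80-fold. The sums were 1.36-fold higher for endothelial, 1.31-fold higher for mural and 1.86-fold higher for fibroblast markers, and that of neuronal markers was 0.647 of the sham level. The 8 oligodendrocyte markers summed to 5254 to 6433 CPM in sham and 5990 to 9050 CPM in BCAS mice, 1.23-fold higher with overlap. Of the 8, 0 passed the test in edgeR or limma-voom, 1 was higher in DESeq2, and 1 was higher at an unadjusted P under 0.05 in edgeR. The 12 markers of blood cells summed to 76.5 to 88.1 CPM in sham and 106 to 169 CPM in BCAS mice. Most of this sum came from 2 hemoglobin genes, so it says little about the other blood markers. Hba-a1 measured 30.3 ± 3.02 CPM in sham and 43.0 ± 13.3 CPM in BCAS mice (SD, n = 3 each). Hbb-bs measured 49.9 ± 3.46 and 71.3 ± 20.7 CPM (SD, n = 3 each). The monocyte markers Ccr2, Ly6c2 and Plac8 and the T cell markers Cd3e, Cd3d and Cd8a were up-regulated DEGs in edgeR, each at most 5.64 CPM in any BCAS mouse. S100a9, of neutrophils, and the hemoglobin genes Hba-a1 and Hbb-bs did not pass the test. S100a8, Mpo and Ly6g did not pass the filter on low counts: S100a8 had 2, 4 and 9 counts in sham and 5, 36 and 24 counts in BCAS mice, and the neutrophil marker Ly6g had 0 in every library.

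Divided by the astrocyte marker sum of the same library, the 9 genes that rose were still higher in every BCAS mouse than in every sham mouse. The ratio rose 6.24-fold for Ptx3, 4.97-fold for Cd44, 4.76-fold for Serpina3n, 4.29-fold for S1pr3, 4.09-fold for Steap4 and 3.62-fold for Aspg, and by 2.77-fold for Emp1, 1.79-fold for Cd109 and 1.45-fold for Tm4sf1. That of Fkbp5 was lower in every BCAS mouse, 0.797% ± 0.0785 against 0.516% ± 0.0570 of the sum (SD, n = 3 each). Fkbp5 is also expressed in neurons, and it was not divided by the neuronal marker sum. That sum fell to 0.647 of the sham level, and the mean of Fkbp5 was 0.917 of its sham mean. The microglial markers rose unequally, from 2.91-fold for P2ry12 to 20.1-fold for Trem2, so ratios to their sum depend on the markers chosen. Divided by the microglial marker sum, no gene was higher without overlap. Ptx3, Cd44 and Steap4 overlapped, with ratios of the BCAS to the sham mean of 0.999, 0.814 and 0.66, and the other 7 were lower in every BCAS mouse, from 0.777 for Serpina3n to 0.107 for Fkbp5. Divided by endothelial markers, Tm4sf1 was 1.5-fold and Cd109 1.84-fold higher, again without overlap. Divided by fibroblast markers, Tm4sf1, Cd109 and Steap4 overlapped. The part of microglia, vessels and fibroblasts in the rise of these 9 genes was not tested.

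**Figure D4:**
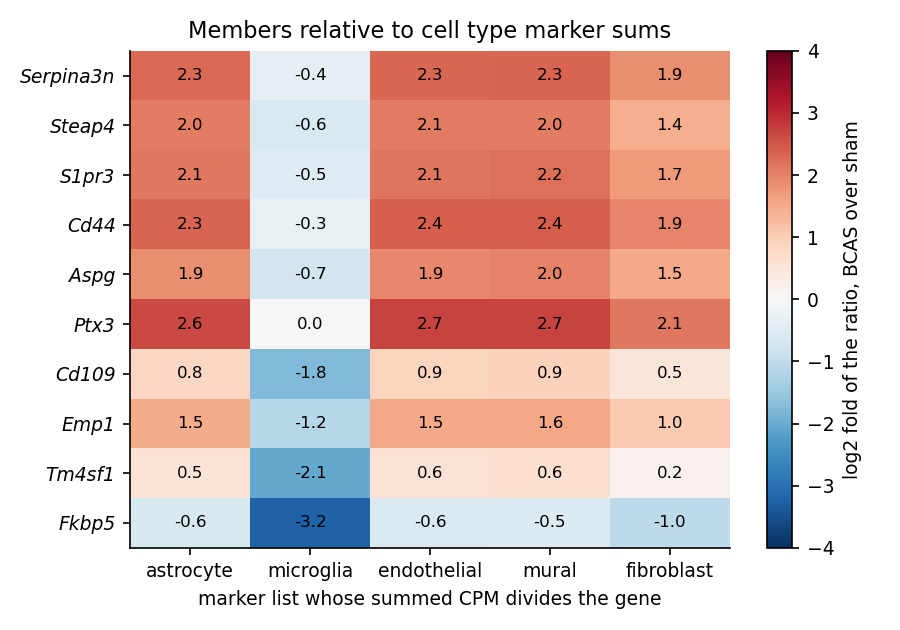
Log2 fold change, BCAS over sham, of the ratio of each gene to the summed CPM of the markers of 5 cell types (color and printed value, from group means of 3 mice each). Relative to astrocyte markers 9 genes lie above 0, relative to microglial markers none is clearly above 0, and Fkbp5 is below 0 for all 5. Neuronal markers, whose sum fell to 0.647 of the sham level, are not among the 5.

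Other genes of the reactive astrocyte sets were counted in the same fit. Of the 8 other pan-reactive genes, 7 were up-regulated DEGs, with a median log2 fold change of 3.04. Gfap, the intermediate filament that defines astrocytes, measured 427, 353 and 346 CPM in sham and 3924, 3448 and 3661 CPM in BCAS mice (log2 fold change 3.29, SE 0.15, adjusted P = 7.25e-06 in edgeR). Lcn2, a secreted iron carrier protein, and Cxcl10, a chemokine, had the largest log2 fold changes of these 8 genes, 5.67 and 5.18, with 0.361 ± 0.370 and 0.519 ± 0.359 CPM in sham and 18.6 ± 11.7 and 19.0 ± 7.16 CPM in BCAS mice (SD, n = 3). The heat shock protein gene Hspb1 gave 0.41 (SE 0.14, adjusted P = 0.0595 in edgeR).

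Of the 8 other A2 genes 7 were tested. Among them 6 were higher, 4 of them as up-regulated DEGs, and Ptgs2 was lower, with a median log2 fold change of 1.05. Tgm1, a transglutaminase, had only 2, 6 and 2 counts in the sham libraries, so that sham mice 1 and 3 were below the limit of detection, and 5.76, 9.58 and 14.6 CPM in BCAS mice. It was an up-regulated DEG (adjusted P = 4.43e-05 in edgeR), and its fitted log2 fold change of 6.61 rests on these few sham counts. Cd14, a receptor for lipopolysaccharide that microglia also express, and the cytokine Clcf1 rose by 3.46 and 2.78 (adjusted P = 2.08e-05 and 4.93e-05 in edgeR). Ptgs2, the inducible cyclooxygenase, which neurons also express, fell by 0.89 on the log2 scale (adjusted P = 0.0282 in edgeR).

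Of the 10 other A1 genes, 8 were up-regulated DEGs and Amigo2, a cell adhesion gene, fell by 0.74 on the log2 scale (adjusted P = 0.00943 in edgeR), with a median of 2.45. Among those that rose, H2-D1, Psmb8, H2-T23 and Gbp2 serve antigen presentation or the interferon response and are not specific to astrocytes. H2-D1 rose from 41.2 ± 3.76 to 473 ± 146 CPM (SD, n = 3; log2 fold change 3.52, adjusted P = 1.71e-05 in edgeR). Fbln5, a protein of elastic fibers, gave 0.74 (SE 0.26, adjusted P = 0.0573 in edgeR). With the 10 genes added, 12 of 13 pan-reactive, 8 of 11 tested A2 and 8 of 11 A1 genes were up-regulated DEGs.

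**Figure D5:**
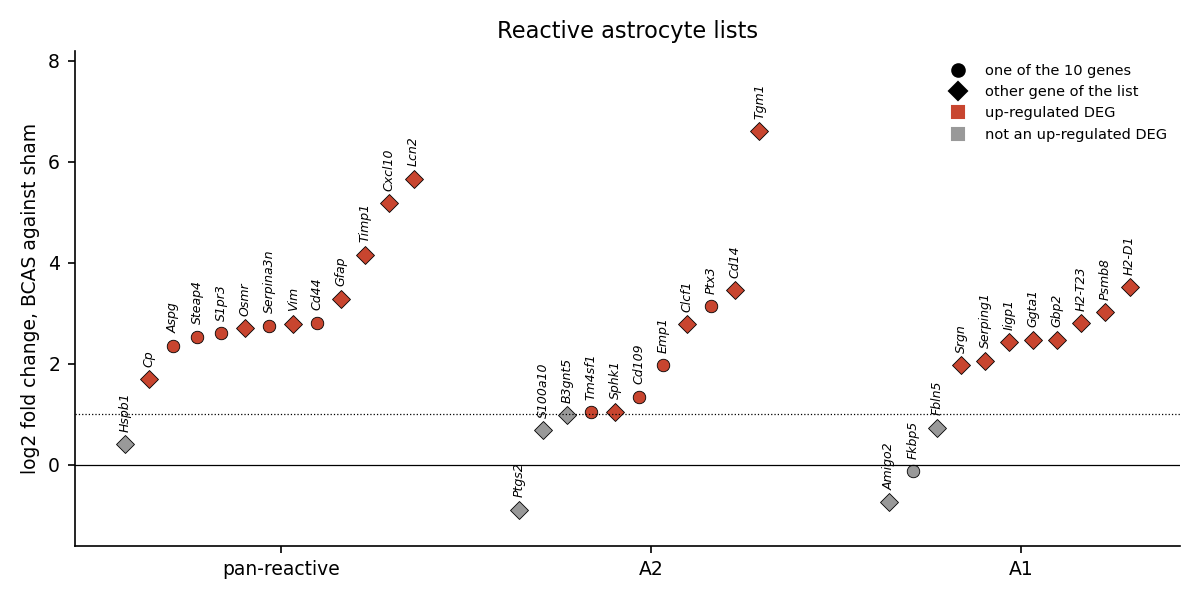
Log2 fold change in BCAS against sham mice of the tested pan-reactive, A2 and A1 genes, with the 10 genes as circles, the others as diamonds and up-regulated DEGs in red. Fkbp5 at -0.12 lies with Amigo2 and Fbln5 below the dotted threshold among the A1 genes, and the point of Tgm1 at 6.61 rests on 2, 6 and 2 sham counts.

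Cytokines of the interleukin 6 family signal through gp130 and the transcription factor STAT3, which is known to drive astrocyte reactivity. Of 17 tested genes of this pathway, 11 were higher, 8 of them as up-regulated DEGs, 0 were lower, also at an unadjusted P under 0.05 and in DESeq2 and limma-voom, and 6 did not pass, with a median log2 fold change of 0.68. The cytokine Osm rose from 0, 0.120 and 0.117 CPM in sham to 1.35, 1.79 and 2.05 CPM in BCAS mice (adjusted P = 0.00111 in edgeR). Its receptor Osmr rose from 6.54 ± 1.13 to 42.7 ± 7.91 CPM, the shared receptor chain Il6st from 84.6 ± 5.24 to 180 ± 36.4 CPM and Stat3 from 49.6 ± 3.205 to 102 ± 17.6 CPM (SD, n = 3; adjusted P = 2.21e-05, 0.000554 and 0.00035 in edgeR). Socs3, a STAT3 target that inhibits the pathway, rose from 1.95, 1.92 and 1.69 CPM to 8.13, 12.8 and 18.7 CPM (log2 fold change 2.83, SE 0.29, adjusted P = 0.000194 in edgeR).

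The RefSeq table gave promoter windows for 9 of the 10 genes, and none for Cd109. Emp1 had 2 windows, at different starts, and its matches given below lie in the first, whose bases are printed above. Each window ran from 250 bases before to 50 bases after a start, 300 bases in all, and 32851 such windows served as the background. Exact letters were searched on both strands. The STAT motif TTCNNNGAA was present in 8.30% of all windows and in those of Steap4, 116 bases before the start, and Emp1, 120 and 22 bases before it. The AP1 motif TGANTCA, in 7.81% of all windows, was found in that of Emp1, 145 and 25 bases before the start, and the nearer match overlaps the STAT match. The CEBP motif TTGCNNAA, in 10.8%, was found in Steap4, 87 bases before, and in Ptx3, 57 bases before the start.

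The glucocorticoid response motif ACANNNTGT was present in 6.85% of all windows. It was found in Serpina3n, 76 bases before the start, and in Tm4sf1, 195 bases before it, but these letters are not in the Fkbp5 window. The NF-kappa B motif GGGANTTCC, in 1.68%, was found in Ptx3 just after the start and so outside the bases printed. The interferon response core GAAANNGAA, in 8.56%, was found in Tm4sf1, 218 bases before the start, and the CRE motif TGACGTCA, in 1.79%, in none of the 9. The windows of S1pr3, Cd44, Aspg and Fkbp5 held none of the 7 motifs, and neither did the second window of Emp1. A match of letters describes the sequence and was not tested for binding.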

How the data were processed

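The authors counted RNA-seq reads per gene on mm10, and the deposited counts are raw whole numbers, neither normalized nor filtered. The submitters' processing notes name FastQC, Trim Galore, HISAT2, SAMtools 1.9 and featureCounts 1.6.3, whereas the file headers name featureCounts 2.0.3. The file headers name a GENCODE annotation and the study's methods RefSeq. According to the headers, each mate of a pair was counted on its own, without regard to strand, and multi-mapping reads were left out, which lowers values of genes with close copies.

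Samples were grouped and numbered by their titles. Genes were filtered with filterByExpr, scaled with TMM factors and tested for BCAS against sham by the quasi-likelihood F test of edgeR (R 4.3.3, edgeR 4.0.16, limma 3.58.1), with Benjamini-Hochberg adjustment over all 18617 tested genes and no replicate block. Standard errors are the log2 fold change divided by the square root of F. The study's thresholds for DEGs were used, and DESeq2 1.42.0 served as an alternative. The steps were tested on simulated data. The 10 genes and all lists were chosen with earlier results of these data known. Named genes are the 10, genes of lists of up to 12, and, of longer lists, those past the adjusted P threshold and defining markers, and other genes, here Steap1 and Steap2, are said to be chosen after their values were seen. Counts of every pair of libraries differed. Intervals cover the spread between 3 mice per group, and limits of detection cover counting error alone.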

Additional observations from a re-analysis of the deposited data

How the results depend on the processing

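Across 17 alternatives, no gene of the 10 changed direction, and 9 were higher at an adjusted P under 0.05 in each alternative for which this was counted (glmTreat, which tests against a fold change, was not). Of the 10, 9 were up-regulated DEGs in 14 alternatives, 8 without sham mouse 2 or BCAS mouse 3, and 6 with glmTreat, which did not call Steap4, Cd109 and Tm4sf1 (adjusted P = 0.0903, 0.252 and 1). Log2 fold changes ranged from 2.56 to 2.85 for Serpina3n, 2.06 to 3.47 for Steap4 and -0.23 to -0.05 for Fkbp5. Up-regulated DEGs among all genes numbered 804 with glmTreat, whose construction demands a larger fold change, and otherwise 1210 to 1746. When library totals replaced TMM, the median log2 fold change of all genes moved from 0.02 to 0.09. The replicate numbers are not stated to pair the mice. Between mice of the same number, the correlations of deviations from the group means were 0.036, -0.314 and -0.158. With 3 mice per group these values cannot exclude pairing. With a replicate block there were 1437 up-regulated DEGs, 9 of them among the 10 genes. With 3 mice per group, no exact permutation test of a single gene can go below p = 0.1, so the calls rest on the spread that edgeR shares across genes. Without sham mouse 1 the adjusted P of Steap4 was 0.0488. The choroid plexus covariate was added after seeing the data and gave 9 of 10.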
